A study of Mus musculus with 19 samples.

Results

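Astrocyte marker transcripts were followed in the brains of male mice of 2 genotypes, wild type (wt) and transgenic for SCA3, given the mTOR inhibitor CCI-779 or placebo. The markers were 10 of the 18193 genes named on the array, Gfap, Aqp4, Aldh1l1, Slc1a2, Slc1a3, Gja1, Gjb6, S100b, Aldoc and Glul, chosen by name and not by their values. They were measured by every probe set that the probe-to-gene table assigns to 1 of these symbols alone, 32 of 45037 probe sets. A further probe set that carries several symbols, Slc1a2 among them, was left out. A probe set is a group of short probes on an Affymetrix array that together give 1 intensity, reported here on the log2 scale. Of the 32, 28 averaged 4 or more on the log2 scale across all 19 arrays and were tested; the text calls each of them a member. The other 4 (Aldh1l1 1424401_at, Slc1a2 1433094_at and 1459014_at, and Slc1a3 1439072_at) had means of 2.13 to 3.01 and no array above 3.23.

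Spinocerebellar ataxia type 3 (SCA3) is a neurodegenerative disease in which ataxin-3 carries an expanded run of glutamines. CCI-779 (temsirolimus) is an ester of rapamycin. Mice received 3 intraperitoneal doses of 20 mg/kg each week, or placebo on the same schedule. Treatment began at an age of 5 weeks and lasted 6 weeks, and the brains were then frozen. There were 4 arrays of wt mice on placebo, 5 of wt mice on CCI-779, 5 of SCA3 mice on placebo and 5 of SCA3 mice on CCI-779. The promoter, the copy of ataxin-3 and the line of the transgene, the strain and the brain region are not given in the sources used here, and no source says that each array came from a separate mouse. The p-values weigh each difference against the scatter among these samples. Part of that scatter may be technical, so the p-values may not extend to other mice. The first wt CCI-779 array carries no replicate number in its label and is called replicate 1.

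Astrocytes take up glutamate from synapses through the transporters GLAST (Slc1a3) and GLT-1 (Slc1a2) and turn it into glutamine with glutamine synthetase (Glul). They are coupled to each other by gap junctions of connexin 43 (Gja1) and connexin 30 (Gjb6), and their endfeet on blood vessels hold the water channel aquaporin-4 (Aqp4). Gfap encodes an intermediate filament that astrocytes produce in larger amounts when they react to injury. Aldh1l1, a folate enzyme, Aldoc, a glycolytic aldolase, and S100b, a calcium-binding protein also found in some oligodendrocytes, are further markers of the cell type.

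All 10 genes were measured above the filter in every group, as were 28 of 30 other astrocyte identity genes. The neuronal marker Snap25 (mean 15.15) and the myelin gene Mbp (mean 15.33) were also present, which does not tell which brain region was taken. Arrays had mean linear intensities of 434 to 463. The hybridisation spike-ins, control transcripts added to every sample, were dimmer on the CCI-779 arrays (9.97 to 10.65) than on the placebo arrays (10.88 to 11.60), with no overlap. Their part in the drug differences that follow was not tested. There were 3 arrays that stood apart in how far actin's 3′ probe set exceeded its 5′ one, a measure of RNA integrity. This difference was 2.55 on wt CCI-779 replicate 1, 0.96 on SCA3 CCI-779 replicate 2 and 0.88 on SCA3 CCI-779 replicate 5, and 1.19 to 1.55 on the other arrays. For Gapdh the same difference was −0.44 to 0.28 on the CCI-779 arrays and −0.58 to −0.47 on the placebo arrays. These ranges did not overlap, and their part in the drug differences was not tested. On SCA3 CCI-779 replicates 2 and 5 the Gapdh difference was −0.31 and −0.37, within their group (−0.43 to −0.28). Results that rest on the 3 arrays set apart by actin are given with and without them. Member counts without them stand with the other processing settings.

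Under CCI-779, 1 probe set each of Slc1a2, Slc1a3, Gja1 and Aldh1l1 was higher than under placebo when the effect was averaged over the genotypes, and 1 each of Aqp4 and Glul was lower. These were 6 of the 28 tested members, 4 higher and 2 lower, where 28.8% of all 20473 tested probe sets passed (20.1% higher and 8.67% lower, limma with Benjamini-Hochberg adjustment, threshold 0.05). In SCA3 mice 4 members were higher and 0 lower (15.2% of all tested probe sets passed, 10.2% of them higher and 4.95% lower, as shares of all tested). In wt mice 3 members were higher and 0 lower (11.9% of all, 9.78% higher and 2.11% lower). The median difference of the 28 members was 0.04 in SCA3 and −0.01 in wt, beside 0.01 and 0.05 over all tested probe sets. The members' shares were near those of the whole array. Changes were small, from −0.36 to 0.82 on the log2 scale among those that passed. How they divide into higher and lower depended on the scaling. After quantile normalization 4 members were higher and 2 lower in SCA3, and 2 higher and 4 lower in wt. With every array centred on its own median there were 3 higher and 2 lower in SCA3, 1 higher and 4 lower in wt, and 3 higher and 6 lower in the average. The whole array shifted the same way. Among all calls in SCA3 the higher share went from 67.4% to 53.0% after quantile normalization and 44.7% after centring. In wt it went from 82.2% to 61.3% and 45.2%, and in the average from 69.9% to 49.9% and 38.5%. In bulk tissue fewer astrocytes and less RNA per astrocyte cannot be told apart.

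**Figure D1:**
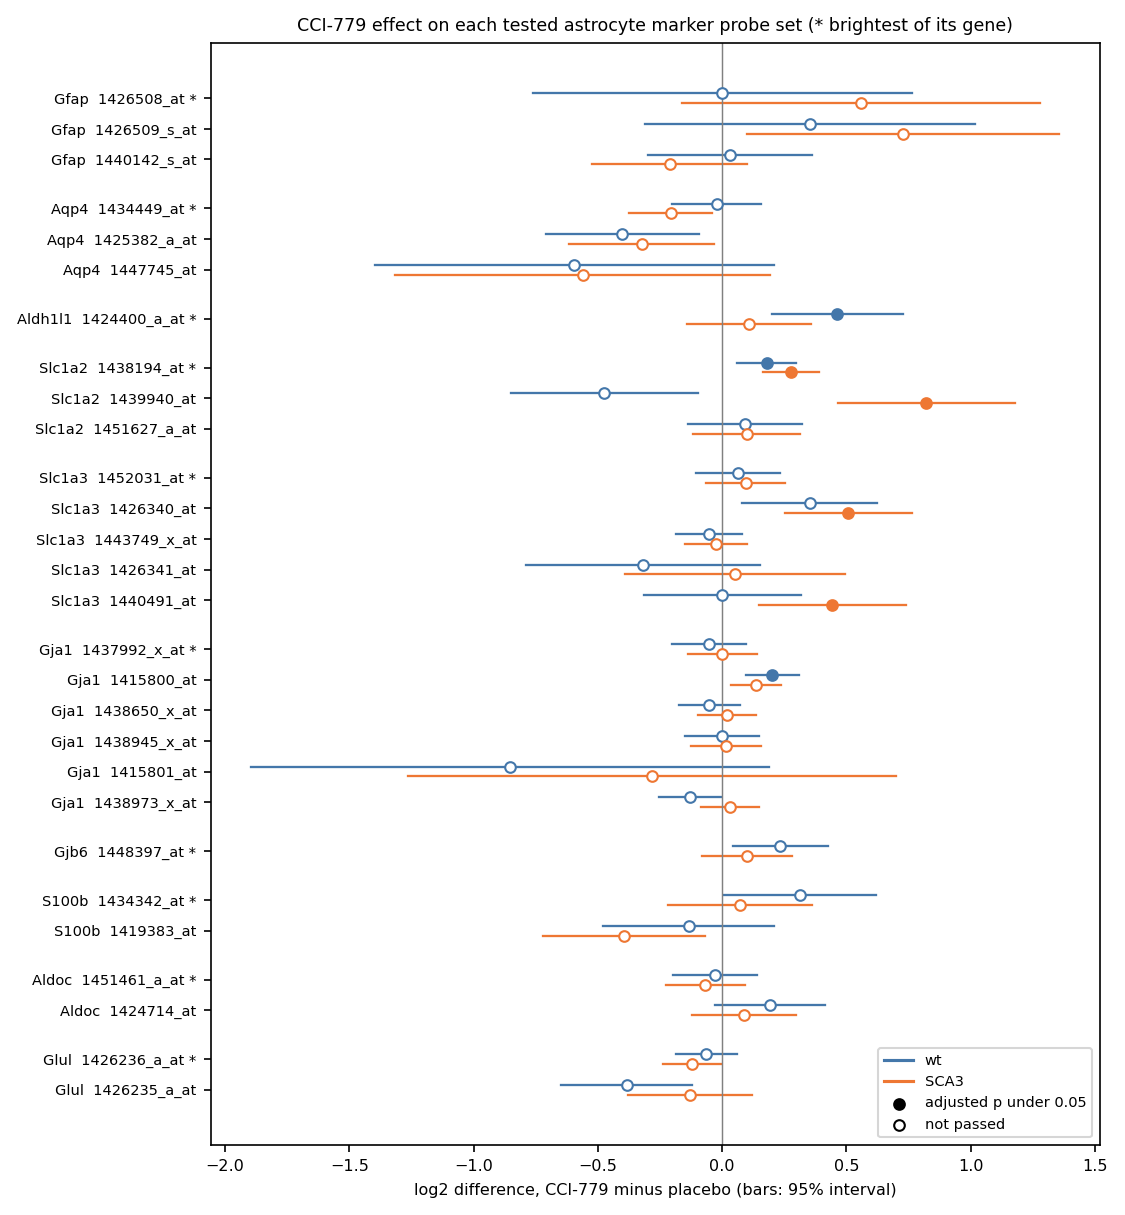
Log2 difference between CCI-779 and placebo for each of the 28 tested probe sets, in wt (blue) and SCA3 (orange), with its 95% interval from the limma fit; filled points passed at an adjusted p under 0.05. The filled points are 3 in wt and 4 in SCA3, and probe sets of the same gene, such as the 6 of Gja1, do not all lie on the same side of 0.

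The 4 genes with a probe set that was higher under the drug averaged over genotypes are shown by the 250 bases upstream of a start that RefSeq lists for each (build GRCm38.p6, 5′ to 3′ on the gene's strand). They are shown because these members moved the same way in the same comparison. Capitals mark matches, on either strand, to 4 motifs. TATAAA is the TATA box. The CCAAT box is the motif of those letters. The GC box is searched as GGGCGG. The letters TTCNNNGAA have the spacing that STAT factors bind and are called the STAT motif.
Slc1a2, chr2:102706188-102706437, plus strand: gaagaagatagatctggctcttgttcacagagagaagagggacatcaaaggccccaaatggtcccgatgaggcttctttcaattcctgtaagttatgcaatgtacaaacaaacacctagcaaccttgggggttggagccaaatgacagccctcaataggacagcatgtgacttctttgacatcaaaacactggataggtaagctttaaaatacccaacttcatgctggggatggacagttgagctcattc
Slc1a3, chr15:8710808-8711057, minus strand: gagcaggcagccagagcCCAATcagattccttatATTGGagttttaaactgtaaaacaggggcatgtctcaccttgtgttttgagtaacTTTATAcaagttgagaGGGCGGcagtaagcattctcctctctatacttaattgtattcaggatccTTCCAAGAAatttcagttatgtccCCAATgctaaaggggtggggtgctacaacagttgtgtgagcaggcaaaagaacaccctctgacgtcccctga
Gja1, chr10:56377050-56377299, plus strand: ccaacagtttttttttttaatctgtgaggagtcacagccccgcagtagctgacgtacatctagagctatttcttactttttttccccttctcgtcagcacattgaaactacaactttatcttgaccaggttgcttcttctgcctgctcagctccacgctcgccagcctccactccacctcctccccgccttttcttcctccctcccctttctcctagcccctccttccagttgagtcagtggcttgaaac
Aldh1l1, chr6:90550543-90550792, plus strand: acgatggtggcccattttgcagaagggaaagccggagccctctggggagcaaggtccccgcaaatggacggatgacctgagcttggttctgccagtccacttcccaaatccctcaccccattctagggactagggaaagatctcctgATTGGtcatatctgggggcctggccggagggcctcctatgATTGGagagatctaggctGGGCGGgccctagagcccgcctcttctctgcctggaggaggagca
The Slc1a3 window held 1 TATA box, 3 CCAAT boxes, 1 GC box and 1 STAT motif. The Aldh1l1 window held 2 CCAAT boxes and 1 GC box. No match lay in the Slc1a2 or Gja1 window, so the 4 windows shared none of these letters. The Slc1a2 window lies inside the gene, which spans chr2:102658239-102790784, at a start downstream of the gene's 5′ end. The windows of Slc1a3, Gja1 and Aldh1l1 lie at the 5′ end of their genes. The Slc1a2 window thus differs from them in position, and the sequence upstream of that gene's 5′ end is not shown. Of 32851 RefSeq windows of the same length, 12.4% held the TATA box, 33.8% the CCAAT box, 32.7% the GC box and 7.02% the STAT motif. A match is a description of the sequence and no evidence of binding.

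The glutamate transporter GLT-1 (Slc1a2) held the smallest p of all members under CCI-779 in SCA3 and in the average over genotypes. On its brightest probe set, 1438194_at, the wt placebo arrays were at 13.63, 13.73, 13.82 and 13.68 and the wt CCI-779 arrays at 13.92, 13.95, 13.86, 13.92 and 13.82. The SCA3 placebo arrays were at 13.78, 13.56, 13.72, 13.76 and 13.72 and the SCA3 CCI-779 arrays at 14.03, 13.92, 13.93, 14.03 and 14.01. In SCA3 every treated array lay above every placebo array, which 8.51% of all tested probe sets also showed, while in wt the highest placebo and the lowest treated array met. The rise was 0.28 in SCA3 (SE 0.05, adjusted p = 0.00288) and 0.18 in wt (SE 0.06, adjusted p = 0.0476). It was 0.23 averaged over the genotypes (SE 0.04, adjusted p = 4.57e-04), and the interaction was 0.10 (SE 0.08, 95% interval −0.07 to 0.26, adjusted p = 0.772). The wt call was at the threshold. It was lost when each array was centred on its median (0.07, adjusted p = 0.475), after quantile normalization (0.18, adjusted p = 0.0608) and in 13 of 19 fits that left out 1 array (adjusted p up to 0.115). With the 3 arrays that stood apart left out it was 0.17 (adjusted p = 0.0772).

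A second Slc1a2 probe set, 1439940_at, behaved otherwise. The wt placebo arrays were at 8.47, 9.08, 8.83 and 8.997, and the SCA3 placebo arrays at 8.34, 7.996, 7.78, 7.77 and 7.84. The wt CCI-779 arrays were at 8.57, 7.87, 8.51, 8.41 and 8.50, and the SCA3 CCI-779 arrays at 8.22, 8.82, 8.82, 8.86 and 9.10. SCA3 placebo was thus the low group, with every array below every wt placebo array (1.29% of tested probe sets), and of the treated SCA3 arrays replicate 1 lay below the wt placebo range and replicate 5 just above it. It rose by 0.82 under the drug in SCA3 (SE 0.17, adjusted p = 0.00423) and stood at −0.47 in wt (SE 0.18, adjusted p = 0.0901). The genotype difference under placebo was −0.90 (SE 0.18, adjusted p = 0.336) and the interaction 1.30 (SE 0.25, 95% interval 0.78 to 1.81, adjusted p = 0.370), and neither passed over all probe sets. The SCA3 placebo arrays enter the genotype, drug and interaction values alike. The third tested probe set, 1451627_a_at (mean 5.45), stood at 0.10 in SCA3 and 0.09 in wt (adjusted p = 0.561 and 0.604). The 3 probe sets of Slc1a2 therefore shared a sign in SCA3 but not in wt. Which transcripts each of them detects was not tested.

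GLAST (Slc1a3) had 5 tested probe sets, of which 2 rose in SCA3. On 1426340_at the SCA3 placebo arrays were at 11.62, 11.49, 11.67, 11.48 and 11.72 and the treated ones at 11.89, 12.39, 11.85, 11.95 and 12.44. The treated arrays all lay above the placebo arrays, as for 8.51% of tested probe sets, with replicates 2 and 5, the arrays that stood apart, at the top. The rise was 0.51 (SE 0.12, adjusted p = 0.0107), and without them it was 0.30 and did not pass (adjusted p = 0.104). In wt the arrays went from 11.76, 11.47, 11.32 and 11.55 to 11.63, 11.87, 11.84, 12.11 and 11.93, a difference of 0.35 (SE 0.13, adjusted p = 0.0829) that passed once SCA3 CCI-779 replicates 2 and 5 were out of the fit (adjusted p = 0.0254). Averaged over genotypes this probe set rose by 0.43 (SE 0.09, adjusted p = 0.00188), and by 0.33 without those 2 arrays (adjusted p = 0.00427). The dim 1440491_at (mean 4.39) rose in SCA3 by 0.44 (SE 0.14, adjusted p = 0.0419). That call was lost in 10 of 19 fits that left out 1 array and when each array was centred on its median (0.38, adjusted p = 0.0786). With SCA3 CCI-779 replicates 2 and 5 left out it stood at 0.40 (adjusted p = 0.135). The brightest, 1452031_at, stood at 0.10 in SCA3 (95% interval −0.06 to 0.25, adjusted p = 0.424) and 0.06 in wt (95% interval −0.11 to 0.23, adjusted p = 0.636). On 1426341_at, SCA3 CCI-779 replicates 2 and 5 were at 11.06 and 10.98 and wt CCI-779 replicate 1 was at 9.41, while the other 16 arrays lay between 10.06 and 10.75. The last, 1443749_x_at, stood at −0.03 in SCA3 and −0.05 in wt. An x in a probe set's name marks probes shared with other sequences.

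Glutamine synthetase (Glul), which converts the glutamate taken up, stood lower under the drug on both of its probe sets. Only 1 of them passed, in the average over genotypes. On 1426235_a_at the wt placebo arrays were at 10.85, 10.39, 10.35 and 10.33 and the wt CCI-779 arrays at 10.07, 9.96, 10.30, 10.14 and 10.02. The SCA3 placebo arrays were at 10.23, 10.28, 9.94, 9.71 and 10.08 and the SCA3 CCI-779 arrays at 10.01, 10.14, 9.80, 9.81 and 9.81. The 4 wt placebo arrays were above all 15 others. Of tested probe sets, 2.96% had every treated wt array below every wt placebo array. Every SCA3 placebo array lay below every wt placebo array on 1.29% of them. The share with all 15 below was not computed. Averaged over genotypes it fell by 0.26 under the drug (SE 0.09, adjusted p = 0.0332), while the single effects of −0.38 in wt (adjusted p = 0.0543) and −0.13 in SCA3 (adjusted p = 0.493) did not pass. The averaged call was lost in 8 of 19 fits that left out 1 array, and without wt placebo replicate 1, the highest array, the value was −0.20. The genotype difference under placebo was −0.44 (SE 0.13, adjusted p = 0.572). The brighter 1426236_a_at stood at −0.12 in SCA3 and −0.06 in wt (adjusted p = 0.148 and 0.495).

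Connexin 43 (Gja1) had 6 tested probe sets and 1 of them rose. On 1415800_at the wt placebo arrays were at 13.17, 13.37, 13.23 and 13.18 and the wt CCI-779 arrays at 13.42, 13.44, 13.37, 13.49 and 13.48. The SCA3 placebo arrays were at 13.25, 13.13, 13.16, 13.20 and 13.16 and the SCA3 CCI-779 arrays at 13.30, 13.27, 13.37, 13.34 and 13.28. In SCA3 the groups did not overlap (8.51% of tested probe sets separated this way), and in wt placebo replicate 2 reached the lowest treated array. The rise was 0.20 in wt (SE 0.05, adjusted p = 0.0180) and 0.17 averaged over genotypes (SE 0.04, adjusted p = 0.00195), and SCA3 alone stood at 0.14 (SE 0.05, adjusted p = 0.0641). Centring each array on its median reduced the wt value to 0.10 (adjusted p = 0.330) and the averaged value to 0.09 (adjusted p = 0.144). Without wt placebo replicate 4 the wt value was 0.18 (adjusted p = 0.0605). The 4 probe sets with an x in their names, the brightest 1437992_x_at among them, lay between −0.13 and 0.03 in both genotypes and none passed. They moved little between arrays. The widest spread was on 1415801_at, where wt CCI-779 replicate 1 was at 6.21 and SCA3 CCI-779 replicates 1, 3 and 4 at 7.58, 8.20 and 7.74, against 8.41 to 9.79 on all other arrays. Its differences of −0.85 in wt (SE 0.49) and −0.28 in SCA3 (SE 0.47) did not pass (adjusted p = 0.265 and 0.723). Without the 3 arrays that stood apart it fell by 0.87 in SCA3 (adjusted p = 0.0182).

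Connexin 30 (Gjb6), the other astrocytic gap junction protein, was measured by 1448397_at alone. Its mean in wt mice was 10.38 ± 0.10 (SD, n = 4) on placebo and 10.62 ± 0.13 (SD, n = 5) on the drug. In SCA3 mice it was 10.31 ± 0.18 (SD, n = 5) on placebo and 10.40 ± 0.10 (SD, n = 5) on the drug. The wt treated arrays, at 10.45 to 10.81, overlapped the placebo arrays at 10.25 to 10.48. The averaged drug difference of 0.17 just missed the threshold (SE 0.06, adjusted p = 0.0538).

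Aquaporin-4 (Aqp4) was lower under the drug on 1 probe set. On 1425382_a_at the wt placebo arrays were at 10.65, 10.61, 10.47 and 10.91 and the wt CCI-779 arrays at 9.87, 10.16, 10.55, 10.27 and 10.44. The SCA3 placebo arrays were at 10.29, 10.63, 10.66, 10.78 and 10.68 and the SCA3 CCI-779 arrays at 9.84, 10.49, 10.45, 10.29 and 10.35. The groups overlapped in both genotypes. Averaged over genotypes it fell by 0.36 (SE 0.10, adjusted p = 0.0123), at −0.32 in SCA3 and −0.40 in wt (adjusted p = 0.122 and 0.0803). The averaged fall was kept in all 19 fits that left out 1 array (−0.40 to −0.31). The brightest probe set, 1434449_at, stood at −0.21 in SCA3 and −0.02 in wt (adjusted p = 0.0870 and 0.887). It passed in SCA3 after quantile normalization (−0.23, adjusted p = 0.0368) and after centring (−0.27, adjusted p = 0.0212). On 1447745_at wt CCI-779 replicate 1 was at 5.15, and all other arrays lay between 6.55 and 7.99. Without the 3 arrays that stood apart, 1447745_at fell by 0.83 in SCA3 (adjusted p = 0.00229), against −0.56 with all arrays (SE 0.36, adjusted p = 0.311).

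**Figure D2:**
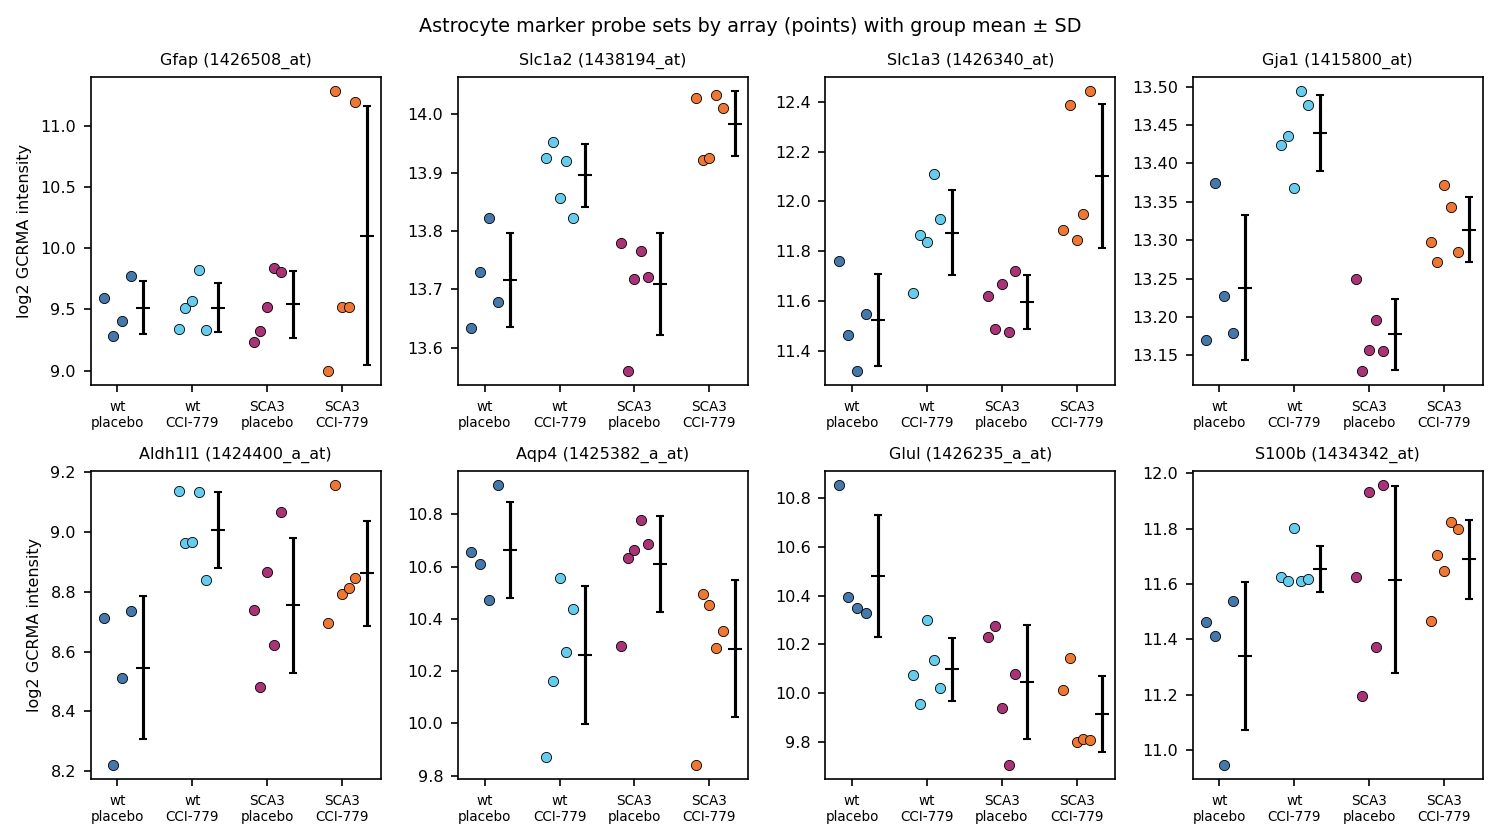
Log2 intensity of 8 probe sets on each array, by group, with the group mean and SD beside the points. The y axes differ and do not start at 0. Each gene is shown by the probe set that passed in the average over genotypes, or by its brightest if none passed. For Slc1a3, Gja1, Aqp4 and Glul the brightest did not pass and is not shown. Slc1a2 1438194_at and Slc1a3 1426340_at are higher in all 5 SCA3 CCI-779 arrays than in all SCA3 placebo arrays, as were 8.51% of tested probe sets. Gfap in SCA3 CCI-779 splits into 2 arrays above 11 and 3 below 10.

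Gfap did not pass in any comparison, and its level was set by single arrays in 1 group. On the brightest probe set, 1426508_at, the wt placebo arrays were at 9.59, 9.28, 9.40 and 9.77, the wt CCI-779 arrays at 9.34, 9.51, 9.57, 9.82 and 9.33, and the SCA3 placebo arrays at 9.23, 9.32, 9.52, 9.84 and 9.80. The SCA3 CCI-779 arrays were at 8.99, 11.28, 9.52, 9.52 and 11.19. Replicates 2 and 5 thus lay above all 17 other arrays, and replicate 1 below them all. The SD was 1.06 in SCA3 CCI-779 and 0.20 to 0.27 in the other groups. The drug difference in SCA3 was 0.56 (SE 0.34, adjusted p = 0.288), and without replicates 2 and 5 it was −0.20 (SE 0.17, adjusted p = 0.524). In wt the difference was below 0.01 in size (SE 0.36, adjusted p = 1). The genotype difference under placebo was 0.03 (SE 0.36, 95% interval −0.73 to 0.79, adjusted p = 1).

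The second Gfap probe set, 1426509_s_at, showed the same arrays high, at 10.84 and 10.82 in SCA3 CCI-779 replicates 2 and 5, with the other 17 arrays between 8.77 and 9.87. Its drug difference was 0.73 in SCA3 (SE 0.30, adjusted p = 0.108) and 0.35 in wt (SE 0.32, adjusted p = 0.484). Without SCA3 CCI-779 replicate 1, the lowest of its group, it passed at 0.97 (adjusted p = 0.0250), and without replicates 2 and 5 it stood at 0.12 (adjusted p = 0.758). The dim 1440142_s_at (mean 5.77) did not share the pattern, with replicates 2 and 5 at 5.68 and 5.82 and the other arrays of the group at 5.20, 5.30 and 5.78. The same 2 arrays had the lowest actin 3′ to 5′ differences, 0.96 and 0.88, and the highest summed levels of 6 other connexins and pannexins, 10.25 and 9.95, against 8.61 to 9.68 elsewhere. The summed level of 12 reactive astrocyte genes was 12.37 and 12.35 on them, within the 12.24 to 12.49 of the other arrays of the group. The summed neuronal markers were 16.79 and 16.77, the highest of all arrays, and the others lay between 16.60 and 16.70. The part of RNA integrity or of tissue composition in the Gfap values was not tested.

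Aldh1l1 rose in wt mice given the drug. On 1424400_a_at the wt placebo arrays were at 8.71, 8.22, 8.51 and 8.74 and the wt CCI-779 arrays at 9.14, 8.96, 8.97, 9.13 and 8.84. Every treated array lay above every placebo array, which 12.1% of tested probe sets also showed. The rise was 0.46 (SE 0.13, adjusted p = 0.0246), and it missed the threshold when 1 of wt placebo replicates 2 and 3 or of wt CCI-779 replicates 1 and 4 was left out (values of 0.35 to 0.45). The SCA3 arrays overlapped, at 8.74, 8.48, 8.87, 8.62 and 9.07 under placebo and 8.70, 9.16, 8.79, 8.81 and 8.85 under the drug, a difference of 0.11 (SE 0.12, adjusted p = 0.582). The interaction of −0.36 did not pass (SE 0.17, 95% interval −0.72 to 0.01, adjusted p = 0.659). Averaged over genotypes the rise was 0.28 (adjusted p = 0.0198). With SCA3 CCI-779 replicates 2 and 5 left out it was 0.24 (adjusted p = 0.0596).

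S100b and Aldoc did not pass in any comparison. The S100b probe sets pointed in different directions under the drug in SCA3. The brighter 1434342_at stood at 0.07 there (adjusted p = 0.765) and 1419383_at at −0.39 (SE 0.15, adjusted p = 0.0940). In wt, 1434342_at had all treated arrays (11.61 to 11.80) above all placebo arrays (10.95 to 11.54), as 12.1% of tested probe sets did, a difference of 0.31 that did not pass (SE 0.15, adjusted p = 0.163). In SCA3 placebo, replicates 3 and 5 were the high arrays on 1434342_at (11.93 and 11.96) and on 1419383_at (10.67 and 10.72). The summed oligodendrocyte markers were 16.69 and 16.75 on those 2 arrays, and 16.50, 16.37 and 16.64 on the other arrays of the group. The part of oligodendrocyte RNA in S100b was not tested. Aldoc on 1451461_a_at had a mean in wt mice of 14.14 ± 0.13 (SD, n = 4) on placebo and 14.11 ± 0.11 (SD, n = 5) on the drug. In SCA3 mice the means were 14.26 ± 0.14 (SD, n = 5) and 14.19 ± 0.08 (SD, n = 5). The groups overlapped throughout. Its drug difference was −0.07 in SCA3 (95% interval −0.23 to 0.09) and −0.03 in wt (95% interval −0.20 to 0.14). The dimmer 1424714_at (mean 9.70) stood at 0.09 in SCA3 (95% interval −0.12 to 0.30) and 0.19 in wt (95% interval −0.03 to 0.42).

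The transgene itself went with no astrocyte marker past the threshold. Between SCA3 and wt mice on placebo, 0 of the 28 members passed by limma, and 0.00977% of all tested probe sets passed. An unadjusted p under 0.05 was reached by 5 members and by 1177 of all 20473 probe sets. After the Slc1a2 and Glul probe sets named above, the smallest p-values were those of 3 Gja1 probe sets, at −0.17 (1437992_x_at, adjusted p = 0.806), −0.15 (1438973_x_at, adjusted p = 0.776) and −0.13 (1438650_x_at, adjusted p = 0.849). Between SCA3 and wt mice on CCI-779, 0 members passed by limma, with 0.00977% of all probe sets past the threshold. Here 4 members and 3163 of all 20473 probe sets had an unadjusted p under 0.05. For the interaction of genotype and drug 0 of all 20473 probe sets passed by limma, and 2 members and 1573 probe sets in all had an unadjusted p under 0.05.

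**Figure D3:**
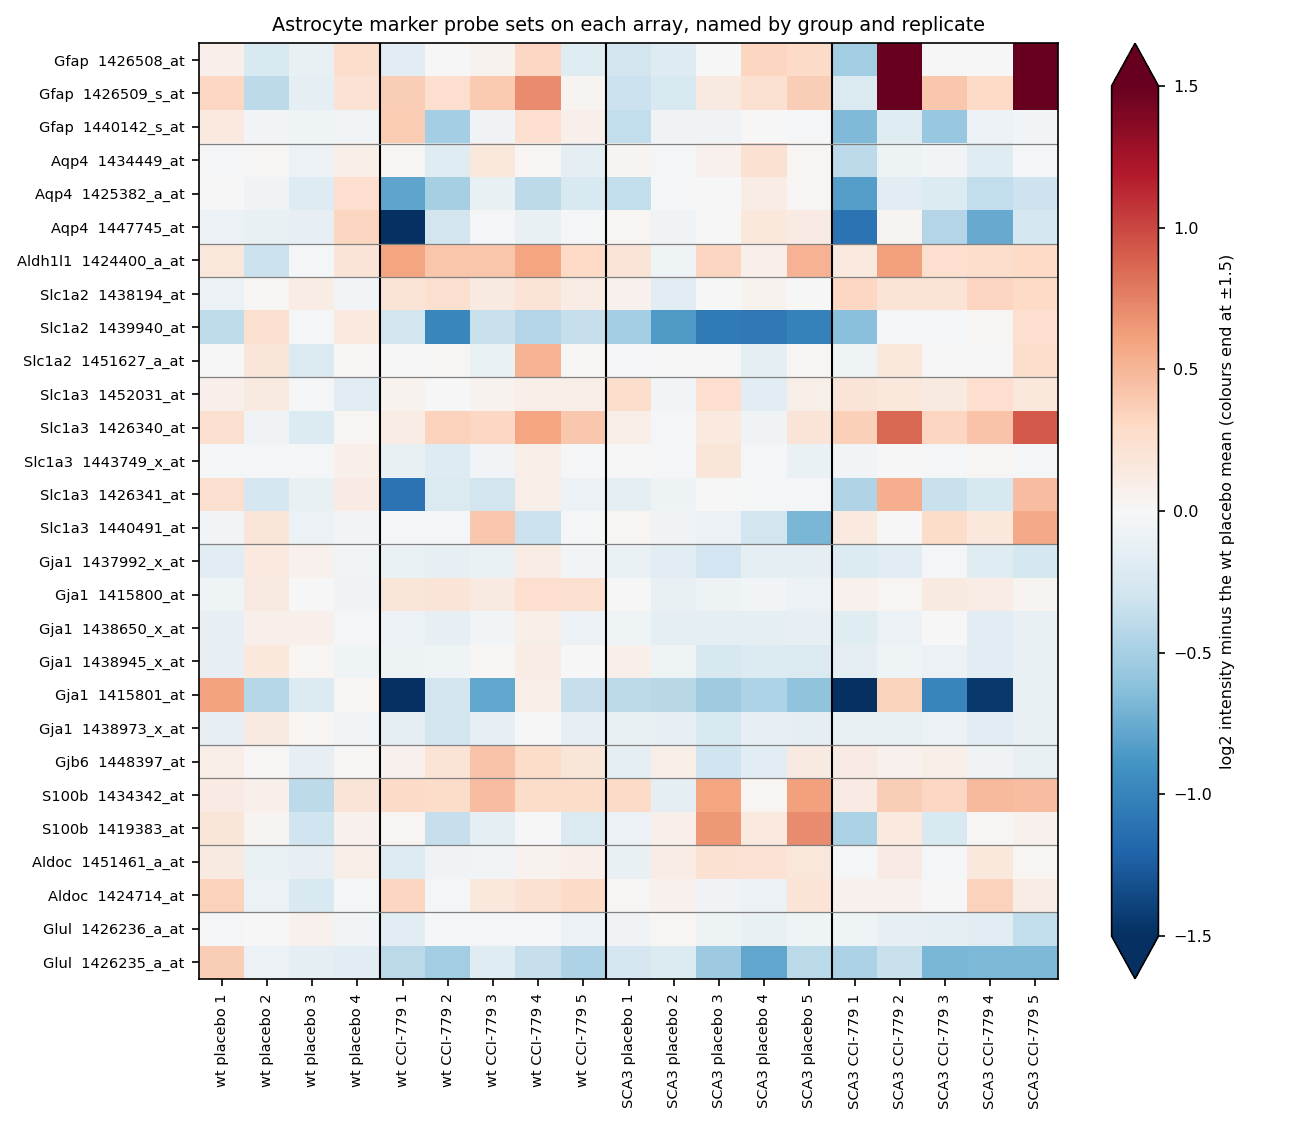
Log2 intensity of the 28 tested probe sets on each of the 19 arrays minus the mean of the wt placebo arrays (red higher, blue lower, colours end at ±1.5). SCA3 CCI-779 replicates 2 and 5 are red on 2 Gfap probe sets, and wt CCI-779 replicate 1 is blue on Aqp4 1447745_at, Gja1 1415801_at and Slc1a3 1426341_at.

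Within groups, the brightest probe sets of the 10 markers did not vary as 1 block. For each gene's brightest probe set, the deviations from the 4 group means were correlated over the 19 arrays, which share their normalization. Other probe sets were not correlated, and the choice matters. Slc1a3 1426340_at was highest on SCA3 CCI-779 replicates 2 and 5, as was Gfap 1426508_at. The Slc1a3 probe set used here, 1452031_at, was not. The median Pearson r of the 45 pairs was 0.01, beside 0.08 for all pairs of genes, and 24 pairs were above 0. Aldh1l1 and S100b had the highest r (0.55), followed by Gfap and Aqp4 (0.54), and Slc1a2 and Gjb6 the lowest (−0.52). None of the 10 had another among the 20 genes nearest to it. The nearest genes to Gfap were Atp6v0a1, Actl6b and Aig1 (r of 0.96, 0.96 and 0.96), which fell to 0.79, 0.80 and 0.73 without SCA3 CCI-779 replicates 2 and 5. The nearest to Slc1a3 was Plpp3, a lipid phosphatase of astrocytes (0.93, and 0.94 without those arrays), followed by Syt11 (0.85) and Lin7c (0.83). Aldoc was nearest to Sdcbp (0.94), Vbp1 (0.93) and Stmn2 (0.91), Aldh1l1 to Mfsd5 (0.90), Kctd1 (0.87) and Polr2m (0.86), and S100b to Pradc1 (0.85), Pde8a (0.85) and Phyh (0.84). Slc1a2 was nearest to Rnf169 (0.83), Fam241a (0.78) and Etl4 (0.77), and Aqp4 to Emp2 (0.81), Cbx8 (0.78) and Mfn2 (0.75). Gja1 was nearest to Tbx18 (0.77), Paqr3 (0.75) and Trps1 (0.75), Gjb6 to Zscan22 (0.81), Lurap1l (0.80) and Sult1a1 (0.72), and Glul to Fam189a2 (0.81), Zfp111 (0.80) and Med18 (0.79). For Glul these were 0.54, 0.41 and 0.66 without SCA3 CCI-779 replicates 2 and 5.

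Other genes of astrocytes, counted by 1 probe set a gene, moved under the drug in both directions. Of 28 measured astrocyte identity genes beside the 10 markers, 9 rose and 2 fell in the average over genotypes, where 22.0% of all 10454 genes rose and 8.26% fell, and the list's median was 0.11 beside 0.04 over all genes. After centring, 5 rose and 6 fell. Without the 3 arrays that stood apart, 7 rose and 2 fell. Atp1b2, a sodium pump subunit, rose by 0.55 in SCA3 and 0.55 in wt (adjusted p = 5.80e-04 and 0.00141). Fgfr3, a growth factor receptor, rose by 0.36 in SCA3 and 0.37 in wt (adjusted p = 0.0138 and 0.0233). Daam2, a formin, rose by 1.03 in the average (adjusted p = 0.00102), and Ndrg2 by 0.23 in the average (adjusted p = 0.00649). Of 12 reactive astrocyte genes above the filter (of 27), 3 rose and 0 fell in the average, among them Fkbp5, a target of the glucocorticoid receptor, at 0.71 (adjusted p = 0.00615), Hspb1, a small heat shock protein, at 0.25 (adjusted p = 0.0119), and Serping1, a complement inhibitor, at 0.41 (adjusted p = 0.0270). S1pr3 fell in SCA3 by 0.71 (adjusted p = 0.0296). After centring, 2 reactive genes rose and 2 fell, and without the 3 arrays that stood apart 4 rose and 1 fell.

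The partners of the markers were counted in the same way, where 22.0% of all genes rose. Of 9 genes of glutamate handling beside the members, 3 rose and 0 fell in the average. They were Slc1a1, a glutamate transporter mainly of neurons (0.46, adjusted p = 1.82e-04), Slc17a6, a vesicular glutamate transporter (0.36, adjusted p = 5.74e-04), and Got2, a mitochondrial transaminase (0.23, adjusted p = 0.0185). Slc38a1 stood at −0.14. After centring, 2 of these genes rose and 1 fell. Of 6 other connexins and pannexins 2 rose, Panx2 by 1.11 (adjusted p = 0.00128) and Gjb2, connexin 26, by 0.58 (adjusted p = 0.0380). Of 7 genes of the dystrophin complex that anchors aquaporin-4 at endfeet 2 rose, Dtna, α-dystrobrevin, by 0.34 (adjusted p = 4.05e-04) and Agrn, agrin, by 0.23 (adjusted p = 0.00219). The rising counts of these 3 lists were 3, 1 and 2 when SCA3 CCI-779 replicates 2 and 5 were left out.

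**Figure D4:**
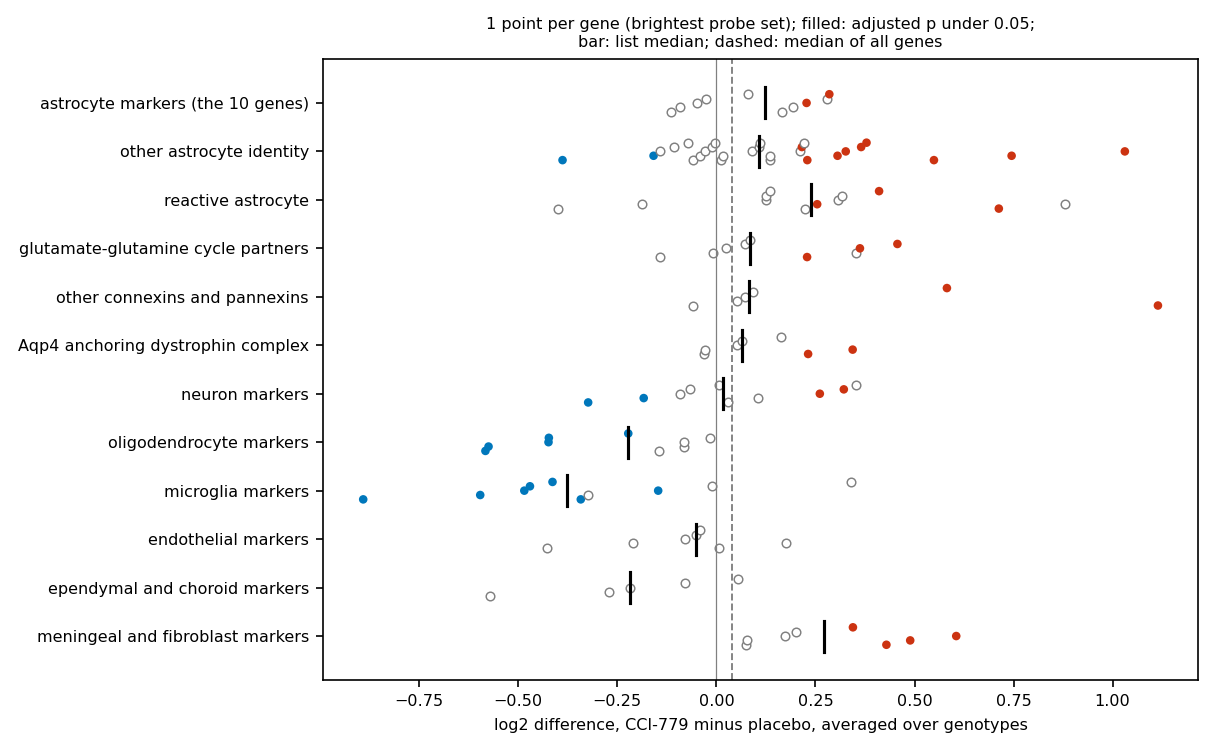
Log2 difference between CCI-779 and placebo averaged over genotypes for each gene of 12 lists (1 point per gene, on its brightest probe set); filled points passed at an adjusted p under 0.05, black bars are list medians and the dashed line is the median of all genes (0.04). Filled points among the astrocyte identity genes lie on both sides of 0, and those of oligodendrocytes and microglia all lie below 0.

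Markers of other cell types moved in the same comparison, where 22.0% of all 10454 genes rose and 8.26% fell. Of 9 oligodendrocyte markers 5 fell and 0 rose in the average, Cnp by 0.42 (adjusted p = 2.12e-04) and Ugt8a by 0.58 (adjusted p = 3.30e-04) among them, and their summed level was 16.32 to 16.75 on the placebo arrays and 16.08 to 16.38 on the CCI-779 arrays. In SCA3 alone 5 fell (median −0.39), where 4.95% of all tested probe sets were lower. In wt 0 passed by limma (median −0.06), where 2.11% of all tested probe sets were lower. The wt count depended on the scaling. After quantile normalization 1 of the 9 fell in wt and 5 in SCA3. After centring 2 fell in wt (median −0.16) and 6 in SCA3. An unadjusted p under 0.05 in wt was held by 3 of the 9 and by 5913 of all 20473 probe sets. The interaction of genotype and drug passed for 0 of the 9 by limma. Its unadjusted p was under 0.05 for 3 of the 9 and for 1573 of all 20473 probe sets. Of 10 microglial markers 7 fell and 0 rose, Csf1r by 0.49 (adjusted p = 1.50e-04) and C1qb by 0.41 (adjusted p = 5.92e-04) among them, with summed levels of 12.69 to 12.86 under placebo and 12.15 to 12.65 under the drug. Of 10 neuronal markers 2 rose (Gad1, 0.26, and Eno2, 0.32) and 2 fell (Rbfox3, −0.32, and Syt1, −0.18). Without the 3 arrays that stood apart, 6 microglial markers fell, and 2 neuronal markers rose and 1 fell. Of 8 meningeal and fibroblast markers 4 rose and 0 fell, led by Aldh1a2 (0.61, adjusted p = 9.06e-05), with summed levels of 10.14 to 10.74 under placebo and 10.54 to 10.92 under the drug. Of 7 endothelial and 5 ependymal and choroid plexus markers none passed by limma, and 2 and 1 of them had an unadjusted p under 0.05, as did 8334 of all 20473 probe sets. After centring, 2 of the ependymal and choroid plexus markers fell, and after quantile normalization 1 did. The summed level of the 10 astrocyte markers was 16.03 to 16.11 on the placebo arrays and 16.02 to 16.16 on the CCI-779 arrays. Bright genes weigh most in this sum of linear intensities. Mean intensities were 18557 for Aldoc, 14641 for Slc1a2, 12786 for Glul and 10282 for Gja1, but 907 for Gfap and 453 for Aldh1l1. The part of these other cell types in the astrocyte values was not tested.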

How the data were processed

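Brain RNA of male wt or SCA3 mice, given placebo or CCI-779, was purified and hybridised to 19 single-colour Affymetrix arrays, per the labels' protocols. The deposited table holds linear intensity values, which the authors computed by GCRMA according to the processing notes of the submitters. This method subtracts background, normalizes between arrays and summarises probe sets, so each value depends on the other arrays. For GCRMA no version is given in the sources used here. Here log2 was taken with no pseudocount, 64 control probe sets were left out, and the 20473 of 45037 probe sets (45.5%) with a mean of at least 4 were tested with limma 3.58.1 in R 4.3.3. A single fit held 4 group means over all 19 arrays, with 15 residual and 2.59 prior degrees of freedom. Tests were two-sided, with Benjamini-Hochberg adjustment over all tested probe sets of each of 6 contrasts and a threshold of 0.05. The number of arrays limits the precision.

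Genes were named from the platform annotation (34945 probe sets carry 1 symbol, 932 several, 9160 none). Lists count each gene by its probe set with the highest mean, 10454 genes in all. Named are all 10 markers, up to 4 genes of each other list with the smallest p in the averaged drug contrast, called or not, and the 3 genes nearest to each marker. Snap25 and Mbp were chosen after their values were seen. A summed level is log2 of the summed linear intensities of a list. The markers and lists were chosen with earlier results of these data known. Upstream sequences are from RefSeq (GRCm38.p6). Arrays were not paired by replicate number in the main fit. Over 24 same-numbered pairs the correlation of their deviations ran from −0.31 to 0.29, with 9 over 0.1, which cannot exclude a pairing. The fit was tested on simulated data. The alternatives were no filter, quantile normalization, centring, a replicate block, a trended robust variance and leaving out arrays; leaving out wt CCI-779 replicate 1 together with SCA3 CCI-779 replicates 2 and 5 was added after seeing the data.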

Additional observations from a re-analysis of the deposited data

Results flagged for a closer look

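In a group of 4 or 5 arrays, a single array can lie far from the rest. Of 112 groups checked (28 probe sets in 4 groups), 13 held such an array, where chance gives about 1 in 20, or 5.6. The wt CCI-779 replicate 1 array was low on Aqp4 1447745_at (5.15, with the nearest array at 7.39) and on Gja1 1415801_at (6.21, nearest 8.41), and its actin 3′ to 5′ difference (2.55) exceeded that of every other array. Its part in these values was not tested. In wt CCI-779, Slc1a2 1439940_at was low in replicate 2 (7.87), Slc1a2 1451627_a_at was high in replicate 4 (5.94) and S100b 1434342_at was high in replicate 3 (11.80). In wt placebo, Gfap 1440142_s_at (6.01) and Glul 1426235_a_at (10.85) were high in replicate 1, and Aqp4 1447745_at (7.99) and Slc1a3 1443749_x_at (11.05) in replicate 4. In SCA3 placebo, Gfap 1440142_s_at was low in replicate 1 (5.50), Gja1 1438650_x_at was high there (12.52), Slc1a2 1438194_at was low in replicate 2 (13.56) and Slc1a2 1451627_a_at was low in replicate 4 (5.28). Gfap in SCA3 CCI-779 does not appear in this count, because 2 arrays were high together.

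The drug effect on Slc1a2 1439940_at differed between the genotypes by 1.30 (SE 0.25, SCA3 minus wt, adjusted p = 0.370). All 5 treated SCA3 arrays lay above the SCA3 placebo mean (7.94), and all 5 treated wt arrays lay below the wt placebo mean (8.85). The difference did not pass over all probe sets.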

How the results depend on the processing

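Of 168 tests on the 28 probe sets in 6 contrasts, 13 passed, and none of these changed sign under any alternative run. The number of marker probe sets past the threshold in SCA3 given CCI-779 went from 4 to 2 once SCA3 CCI-779 replicates 2 and 5 were left out. In wt it went from 3 to 6 (2 higher, 4 lower) after quantile normalization, to 5 (1 higher, 4 lower) after centring and to 0 with the replicate block, in which the unnumbered wt array has no partner. In the average over genotypes it went from 6 to 10 (4 higher, 6 lower) without wt CCI-779 replicate 1 and SCA3 CCI-779 replicates 2 and 5. With 1 array left out at a time the counts were 3 to 5 in SCA3, 1 to 5 in wt and 5 to 8 in the average. In wt, 5 passed without wt placebo replicate 1, and 1 passed when 1 of wt placebo replicates 2 and 4 or of wt CCI-779 replicates 1 and 4 was left out. The counts between genotypes and for the interaction stayed at 0 in these fits. With the replicate block the counts were 4 in SCA3 (3 higher, 1 lower) and 5 in the average (3 higher, 2 lower). It kept 7 of the 13 calls. Of 18 numbered arrays, 4 correlated best with an array of their own number. This cannot tell whether same-numbered arrays were handled together. Gfap 1426508_at turned from 0.56 to −0.20 in SCA3 when SCA3 CCI-779 replicates 2 and 5 were left out, and from 0.28 to −0.10 in the average, or −0.078 with wt CCI-779 replicate 1 left out too. Among all calls the share of higher probe sets was 67.4% in SCA3, 53.0% after quantile normalization and 44.7% after centring, and in wt it was 82.2%, 61.3% and 45.2%. With no filter on low values 10 of the 13 calls were kept. The causes were not tested.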
